A study of Mus musculus with 27 samples.

Results

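The genes described here encode the mouse receptors for acetylcholine, serotonin, noradrenaline and adrenaline, and histamine. They were taken from the deposited count table by symbol alone, as every row that begins with Htr, Chrm, Chrna, Chrnb, Adra, Adrb or Hrh followed by a digit. The rule found 46 of 39338 rows. These were 14 serotonin, 13 nicotinic, 9 adrenergic, 5 muscarinic and 4 histamine receptor genes, and Chrna1os, a long noncoding RNA named after Chrna1 that lies near it on the other strand and overlaps no annotated gene. Enough counts for a test were present for 37 of the 46, namely Chrna1os and 36 receptor genes, among 21768 rows tested in all.

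Each of 27 mice gave 1 RNA library, made of motor cortex nuclei sorted for EGFP-KASH. C9-BACexp mice carry a bacterial artificial chromosome with the full-length human C9ORF72 gene and an expanded hexanucleotide repeat, and they show no overt motor phenotype. Their C57BL/6J littermates served as the wild-type strain. The study compared the genotypes, and asked what RfxCas13d-N2V8, a high-fidelity form of an RNA-cutting CRISPR enzyme, changed when programmed with crRNA-13, which targets the repeat-containing C9ORF72 RNA, or with NTG, a non-targeted crRNA. The groups were C9-BACexp with crRNA-13 (n = 6), C9-BACexp with NTG (n = 6), C57BL/6J with crRNA-13 (n = 3), C57BL/6J with NTG (n = 5), C9-BACexp with EGFP-KASH only (n = 3) and C57BL/6J with EGFP-KASH only (n = 4). Mice given an effector were injected in the motor cortex at 6 weeks of age with a PHP.eB vector, in which the CAG promoter drives the effector, beside a second PHP.eB vector for EGFP-KASH, and nuclei were sorted 2 months later. For mice that received EGFP-KASH alone, age, dose and interval are not given in the sources used here. The effector paired with NTG is RfxCas13d in the labels and RfxCas13d-N2V8 in the methods. EGFP-KASH is a fluorescent protein held at the nuclear envelope, so the sort takes transduced nuclei of any type, although the labels call the cells primary neurons. In stained sections of C9-BACexp mice the paper found EGFP-KASH mostly in neurons, with limited expression in astrocytes and microglia. Most, but not all, EGFP-KASH+ cells of the motor cortex stained for the effector there. Markers of oligodendrocytes, astrocytes and striatal projection neurons were detected in every group.

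Acetylcholine, serotonin, noradrenaline and histamine reach the cortex from long-range projections of small nuclei in the basal forebrain, raphe, locus coeruleus and hypothalamus, and they set arousal, attention and the excitability of pyramidal neurons. Nicotinic and type 3 serotonin receptors are pentameric ion channels and act within milliseconds. The other members are receptors coupled to G proteins. Those coupled to Gq/11 activate phospholipase C and mostly excite, those coupled to Gi/o lower cyclic AMP, open GIRK potassium channels and often restrain transmitter release, and those coupled to Gs raise cyclic AMP. Most are found in neurons, but adrenergic and some serotonin and histamine receptors are also carried by glia and vessels. Counts of sorted nuclei cannot tell fewer nuclei of a type from less RNA in each.

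The libraries held 21508829 to 36777972 counts, with a median of 29001126. Values are given as CPM, the usual measure of a gene's count relative to the size of its library, here after TMM normalization. Human C9ORF72 RNA, summed over 3 transcripts, checks the genotype labels. It was at 64.1 to 99.8 CPM in C9-BACexp mice with crRNA-13, 80.6 to 103 CPM with NTG and 83.6 to 101 CPM with EGFP-KASH only. In the C57BL/6J libraries it was at 0, other than 1 crRNA-13 library with 0.436 CPM. The sum includes the predominant transcript, which lacks the repeat and which the paper does not expect to be targeted. It therefore does not measure knockdown of the repeat-containing RNA. Replicate 2 of the C9-BACexp mice given EGFP-KASH only, replicate 1 of the crRNA-13-treated C9-BACexp mice and replicate 5 of the C57BL/6J mice with NTG stood apart. They held counts for 21857, 22177 and 23220 rows, against 23705 to 26190 in the other libraries. The members called between the genotypes are given below with and without them, but most other results only with them. The first of these holds the highest value of 7 of the 46 members and has 8 of them at 0. Nothing in the labels names a sequencing batch.

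The muscarinic Chrm3 and the serotonin receptor gene Htr1f were the only members above a mean of 100 CPM. A further 16 receptor genes had means of 10 to 100 CPM, 12 had means of 1 to 10 CPM, and 6 lay under 1 CPM. The counts include unspliced transcripts, so introns add to them. Mean CPM and gene length were related across the 36 tested receptor genes (Spearman rho 0.604, a description across genes of the same libraries). Levels of different genes are therefore compared per kilobase of RefSeq gene length.

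Per kilobase, the highest level was that of Hrh3, the histamine autoreceptor and heteroreceptor of nerve endings, at 4.85 CPM per kilobase. Chrm1, the main postsynaptic muscarinic receptor of cortical pyramidal neurons, had 3.39, the noradrenaline receptor gene Adrb1 had 3.26 and the muscarinic Chrm4 had 2.95 CPM per kilobase. Chrm3 followed with 1.69, from 818 CPM over a gene of 486 kilobases. The nicotinic subunits Chrnb2 and Chrna4, which together form the high-affinity nicotinic receptor of the brain, had nearly the same level, 1.26 and 1.24 CPM per kilobase. Htr2c and Htr4 lay far lower, at 0.0832 and 0.0883 CPM per kilobase, although they had 19.5 and 15.9 CPM. This order depends on the annotated lengths. Chrm4 has 7.65 kilobases in RefSeq and 1.44 in GENCODE, and Adrb1 has 3.03 and 10.9.

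**Figure D1:**
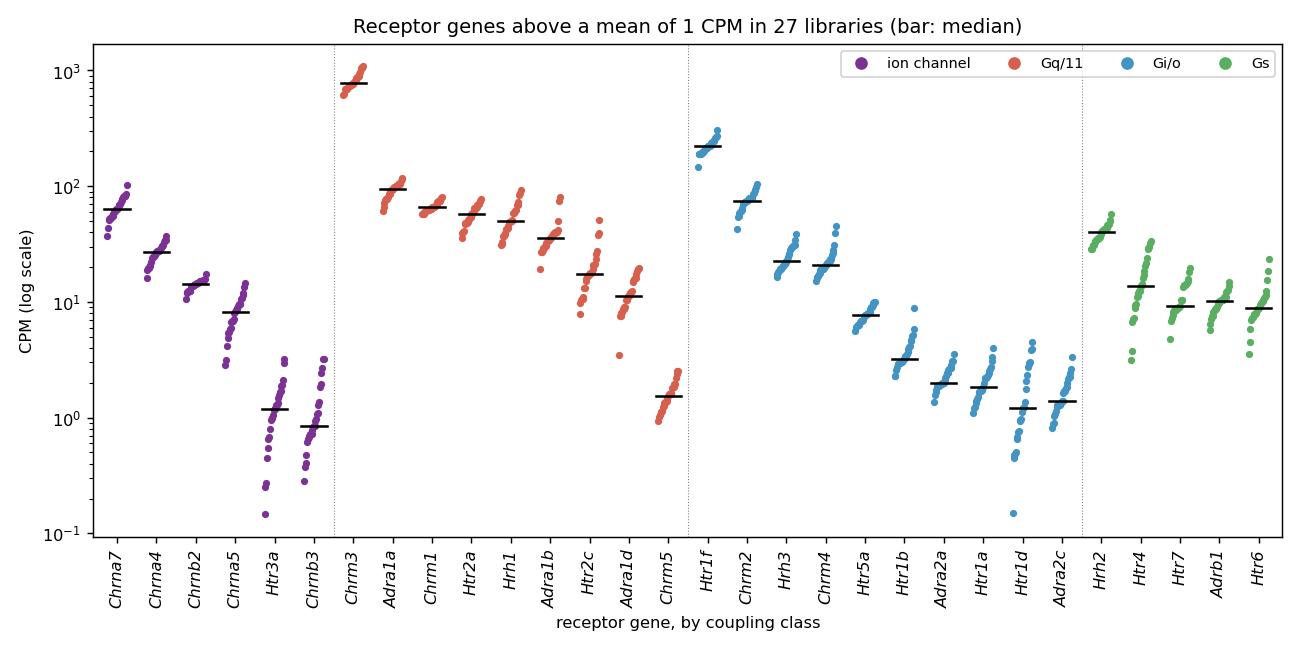
Level of the 30 receptor genes with a mean above 1 CPM in each of the 27 libraries, in CPM on a log axis, with 1 point per library and a bar at the median of all libraries. Chrm3 lies between 613.9 and 1086 CPM in every library, while Htr4 spans 3.13 to 33.6 CPM.

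The ion channel subunits had 9 tested members. Chrna7, whose product forms channels of identical subunits with high calcium permeability, ranged between 37.4 and 102 CPM. Chrna4 ranged between 16.1 and 37.0 CPM and Chrnb2 between 10.6 and 17.3 CPM. Chrna5, an accessory subunit of deep-layer pyramidal neurons, ranged between 2.83 and 14.5 CPM. Htr3a, which marks a class of superficial interneurons, had a median of 1.19 CPM and Chrnb3 one of 0.852 CPM. Chrna2, Chrna10 and Chrnb1 stayed below 1 CPM on average, as did the transcript Chrna1os (0.931 CPM).

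Among the 9 tested receptors coupled to Gq/11, Chrm3 was followed by the α1A adrenoceptor gene Adra1a with 60.7 to 118 CPM. Chrm1 had 56.99 to 81.4 CPM, the serotonin receptor gene Htr2a 35.5 to 77.0 CPM and the histamine receptor gene Hrh1 30.9 to 93.0 CPM. Adra1b had 19.1 to 80.5 CPM, with its highest values in 2 C9-BACexp libraries, replicate 2 with crRNA-13 (80.5 CPM) and replicate 2 with EGFP-KASH only (74.96 CPM), and at most 50.4 CPM elsewhere. Adra1d had 3.50 to 19.7 CPM, and Chrm5 was the lowest, with 0.939 to 2.55 CPM.

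The 11 tested receptors coupled to Gi/o ran between Htr1f, with 147.6 to 305 CPM, and Htr5b, with a mean of 0.408 CPM. Chrm2, a muscarinic receptor that restrains acetylcholine release from nerve endings, had 43.0 to 105 CPM. Hrh3 had 16.4 to 38.4 CPM, Chrm4 15.1 to 45.0 CPM and Htr5a 5.58 to 10.0 CPM. The serotonin autoreceptor genes Htr1a and Htr1b had 1.102 to 4.02 CPM and 2.29 to 8.78 CPM. The α2 adrenoceptor genes Adra2a and Adra2c, targets of clonidine and guanfacine, had means of 2.23 and 1.61 CPM.

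The 7 tested receptors coupled to Gs were led by Hrh2 with 28.5 to 57.3 CPM. Htr7 had 4.82 to 19.8 CPM, Adrb1 5.75 to 14.95 CPM and Htr6 3.58 to 23.3 CPM. Adrb3 lay under 1 CPM on average.

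The 9 members with too few counts for a test were seen in some libraries only. Chrna3 had counts in 22 of the 27 libraries, Chrnb4 and Htr2b in 21 each, Chrna9 in 19, Adra2b in 14, Htr3b in 13, Chrna1 in 12, Hrh4 in 9 and Chrna6 in 6. Chrna3 and Chrnb4 make the ganglionic nicotinic receptor, Chrna1 is a subunit of the muscle receptor, and Chrna9 is known from hair cells of the inner ear. Their highest counts in any library were 5 (Adra2b) to 36 (Chrna9).

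The members differed in how evenly they were expressed by mice of the same group. The spread was taken as the SD within groups of log2(CPM + 0.5). Its quartiles over all tested genes were 0.257, 0.364 and 0.521. Chrm1 was among the steadiest genes of the whole table, with an SD of 0.120, and only 1.58% of all genes had a lower one. Chrnb2 followed with 0.157 (5.57% of genes lower) and Chrna4 with 0.201 (13.4% lower).

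Htr4, a serotonin receptor coupled to Gs, was at the other end, with an SD of 0.897 (95.2% of genes lower). It had 12.5, 7.26, 18.5, 8.87, 11.9 and 9.61 CPM in C9-BACexp mice with crRNA-13, and 21.9, 3.13 and 14.4 CPM in C57BL/6J mice with crRNA-13. With NTG it had 24.1, 13.7, 11.3, 16.0, 12.5 and 17.1 CPM in C9-BACexp mice, against 33.6, 7.12, 9.40, 28.5 and 20.5 CPM in C57BL/6J mice. With EGFP-KASH only it had 3.76, 29.0 and 32.3 CPM in C9-BACexp mice, against 6.71, 11.1, 29.8 and 13.6 CPM in C57BL/6J mice. High and low libraries occurred in each genotype, and the groups overlapped throughout. Htr3a (0.626), Chrnb3 (0.617) and Htr2c (0.593) were the next most variable in that SD.

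The genotypes were compared first with NTG, the largest groups, to see what differed with the transgene in mice that carried the effector without a targeting crRNA. Chrna4 and Htr1d rose in the C9-BACexp mice and Adra1d fell. A member was called at a fold change above 1.2 and an adjusted p under 0.05 in the quasi-likelihood test of edgeR, fitted over all genes with 4 factors of unwanted variation. These were 3 of 37 tested members, where 6.60% of all tested genes were called (4.01% higher and 2.60% lower). At an unadjusted p under 0.05 there were 12 of 37 members, against 25.9% of all genes. DESeq2 called these 3 and Adrb1 (10.3% of all genes) and without the factors the same 3 (1.30%), while edgeR without the factors called 0 (0.0276%). The median log2 fold change of the members was 0.01, and that of all genes 0.02.

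Chrna4 had 27.5, 37.0, 27.2, 29.1, 34.5 and 25.4 CPM in C9-BACexp mice with NTG, against 19.5, 16.1, 22.3, 20.9 and 18.7 CPM in C57BL/6J mice with NTG. Every C9-BACexp mouse lay above every C57BL/6J mouse, which held for 2 of 37 members and 1.43% of all genes in this comparison. The means were 30.1 ± 4.59 CPM (SD, n = 6) and 19.5 ± 2.33 CPM (SD, n = 5), a log2 fold change of 0.62 (SE 0.11, adjusted p = 0.00336, edgeR). The gene lies on chromosome 2 at 180660173 to 180685339 (GRCm39, minus strand) and shares its strand with part of the annotated lncRNA Gm74971. The call held in each of 11 fits that left out 1 library (log2 fold change 0.55 to 0.66). Without the factors the difference was 0.62 and the adjusted p 0.102 in edgeR, while DESeq2 called it with and without them.

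The other groups put that difference beside a second one. Chrna4 had 24.0, 28.0, 26.5, 27.7, 30.3 and 32.7 CPM in C9-BACexp mice with crRNA-13, against 30.4, 24.8 and 28.2 CPM in C57BL/6J mice with crRNA-13. It had 24.6, 27.6 and 34.03 CPM in C9-BACexp mice given EGFP-KASH only, against 24.5, 30.7, 19.8 and 20.4 CPM in C57BL/6J mice given EGFP-KASH only. Lowest were thus the C57BL/6J mice with NTG and a pair of the C57BL/6J mice given EGFP-KASH only. The genotype difference was 0.02 (SE 0.13) with crRNA-13 and 0.28 (SE 0.14) with EGFP-KASH only, and neither was called. With crRNA-13 it was smaller than with NTG by 0.60 on the log2 scale (SE 0.17), with an adjusted p of 0.201, so the change between crRNA-13 and NTG did not pass the test. Within C57BL/6J mice, crRNA-13 against NTG gave 0.51 (SE 0.13, adjusted p = 0.0826). These comparisons share the C57BL/6J mice with NTG.

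Htr1d encodes a Gi/o-coupled serotonin receptor of nerve endings, the target of triptans. It had 2.96, 2.76, 1.24, 2.34, 1.77 and 4.52 CPM in C9-BACexp mice with NTG, against 0.471, 0.681, 0.654, 0.747 and 0.150 CPM in C57BL/6J mice with NTG. The groups did not overlap. The means were 2.60 ± 1.14 CPM and 0.541 ± 0.241 CPM (SD, n = 6 and 5), a log2 fold change of 2.22 (SE 0.45, adjusted p = 0.00927, edgeR). Htr1d lies on chromosome 4 at 136150835 to 136172370 (GRCm39, plus strand) and overlaps no other annotated gene. It is a low gene, with 4 to 120 counts in a library. The call held in each of 11 fits without 1 library (1.99 to 2.37). It was lost without replicates 1 and 6 of the C9-BACexp mice with NTG together (1.88, adjusted p = 0.0522), and without the factors in edgeR (2.25, adjusted p = 0.140), but not in DESeq2 without the factors.

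With crRNA-13, Htr1d had 2.92, 3.96, 1.21, 0.452, 0.930 and 3.83 CPM in C9-BACexp mice, against 0.947, 0.980 and 1.12 CPM in C57BL/6J mice. The C9-BACexp mice thus lay on both sides of their littermates, and the log2 fold change of 1.03 (SE 0.51) was not called. With EGFP-KASH only it had 1.36, 3.02 and 2.09 CPM in C9-BACexp mice, against 0.767, 0.508, 0.484 and 1.22 CPM in C57BL/6J mice. Here the groups were again apart, by 1.55 on the log2 scale (SE 0.53), with an adjusted p of 0.136.

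Adra1d encodes the α1D adrenoceptor, coupled to Gq/11. It had 8.63, 8.25, 9.03, 7.52, 10.4 and 3.50 CPM in C9-BACexp mice with NTG, against 16.1, 19.7, 19.3, 18.4 and 7.59 CPM in C57BL/6J mice with NTG. All but replicate 5 of the C57BL/6J mice lay above every C9-BACexp mouse, and that replicate is one of the libraries with few genes detected. The means were 7.89 ± 2.36 CPM and 16.2 ± 5.02 CPM (SD, n = 6 and 5), and the log2 fold change was -0.995 (SE 0.22, adjusted p = 0.0188, edgeR). The gene lies on chromosome 2 at 131385993 to 131404693 (GRCm39, minus strand), opposite the antisense gene Gm14285. The call was lost without replicate 2 of the C57BL/6J mice with NTG (-0.94, adjusted p = 0.0632), with 2 factors (-1.02, adjusted p = 0.0541) and without factors in edgeR (-1.04, adjusted p = 0.202), and held in the other 10 fits that left out 1 library.

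In the other groups Adra1d showed no such gap. It had 7.96, 11.9, 11.2, 15.2, 10.4 and 12.3 CPM in C9-BACexp mice with crRNA-13, against 11.3, 15.9 and 12.5 CPM in C57BL/6J mice with crRNA-13 (log2 fold change -0.22, SE 0.26). It had 17.6, 9.07 and 10.5 CPM in C9-BACexp mice given EGFP-KASH only, against 14.95, 8.68, 11.9 and 16.2 CPM in C57BL/6J mice given EGFP-KASH only (-0.13, SE 0.28). The groups overlapped in each of these comparisons. Whether the genotype difference changed with the crRNA was tested, and the change of 0.78 (SE 0.35) had an adjusted p of 0.440.

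**Figure D2:**
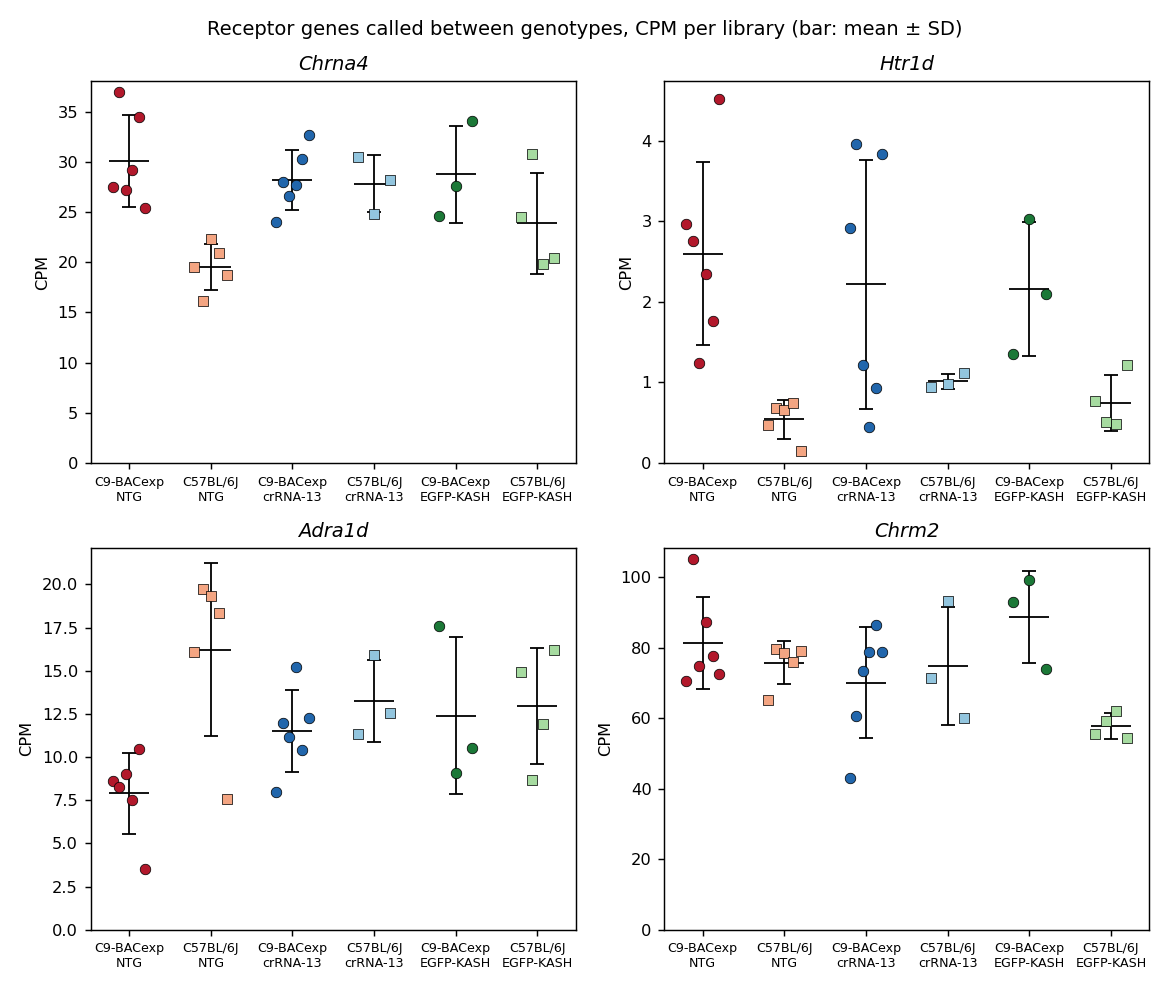
CPM of Chrna4, Htr1d, Adra1d and Chrm2 in each library (points) of the 6 groups, with the mean and SD of each group. With NTG, Chrna4 averages 30.1 CPM in C9-BACexp and 19.5 CPM in C57BL/6J mice, and with EGFP-KASH only, Chrm2 averages 88.7 CPM in C9-BACexp and 57.8 CPM in C57BL/6J mice.

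Without the 3 libraries in which the fewest genes were detected, Chrna4 (0.61, adjusted p = 0.0126), Htr1d (1.94, adjusted p = 0.0190) and Adra1d (-1.26, adjusted p = 0.00139) were still called. Adrb1 and Hrh2, both coupled to Gs, were then called as well, so that 5 of 37 members passed, against 5.61% of all genes in that fit. Adrb1, the main β adrenoceptor of cortex, had 7.61, 8.93, 5.75, 8.65, 9.71 and 7.18 CPM in C9-BACexp mice with NTG, against 12.5, 13.8, 12.6, 10.5 and 6.42 CPM in C57BL/6J mice with NTG. As for Adra1d, only replicate 5 of the C57BL/6J mice lay within the C9-BACexp range. The log2 fold change was -0.48 (SE 0.15, adjusted p = 0.0915), and -0.63 (adjusted p = 0.0249) without the 3 libraries. Hrh2, a histamine receptor of pyramidal neurons, had 30.9, 35.8, 31.1, 35.4, 49.9 and 32.7 CPM in C9-BACexp mice with NTG, against 43.9, 57.3, 46.6, 47.2 and 28.5 CPM in C57BL/6J mice with NTG. The groups overlapped through 1 mouse of each genotype, and the difference was -0.31 (SE 0.12, adjusted p = 0.180), or -0.45 (adjusted p = 0.0453) without the 3 libraries.

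Grouped by coupling, the other tested members gave these differences with NTG. Of the 7 receptors coupled to Gs, 6 had a log2 fold change below 0 and the median was -0.32, but none was called. Htr7 gave -0.32 (SE 0.24) and Htr4 -0.23 (SE 0.37), and Htr6 was the one above 0, with 0.17 (SE 0.17). Of the 9 coupled to Gq/11, 6 lay below 0 with a median of -0.12 and 1 was called lower, Adra1d. Htr2a, the serotonin receptor through which classical psychedelics act, gave -0.35 (SE 0.15) and Chrm5 gave 0.73 (SE 0.24, adjusted p = 0.121), and neither was called. Of the 11 coupled to Gi/o, 8 lay above 0 with a median of 0.13, and 1 was called higher, Htr1d. Of the 9 ion channel subunits, 6 lay above 0 with a median of 0.07, and 1 was called higher, Chrna4. Over all tested genes 51.9% lay above 0. Chrnb2, the usual partner of Chrna4, gave 0.01 (SE 0.11), and Chrna7 gave 0.07 (SE 0.12). Chrna5, which can join both as a further subunit, gave 0.47 (SE 0.31).

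**Figure D3:**
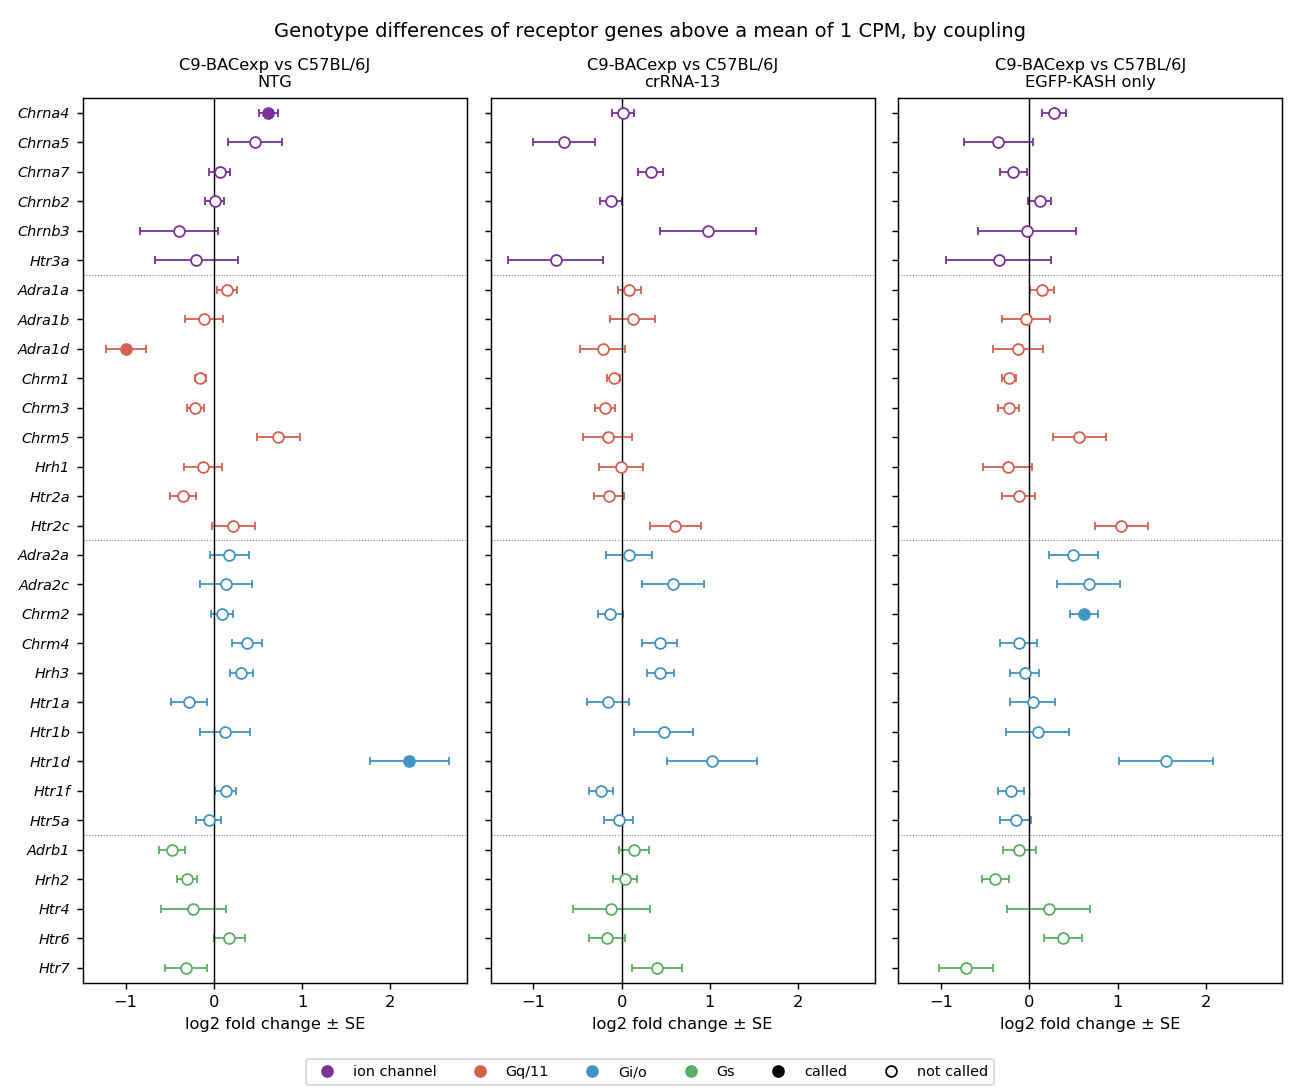
Log2 fold change of C9-BACexp over C57BL/6J mice with its SE for the 30 receptor genes with a mean above 1 CPM, grouped by coupling, for the mice treated with NTG or crRNA-13 and those given EGFP-KASH only. Filled points are called, which are Chrna4, Htr1d and Adra1d with NTG and Chrm2 with EGFP-KASH only, and no point is filled with crRNA-13.

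With crRNA-13, 0 of 37 members were called between the genotypes, where 1.09% of all genes were. At an unadjusted p under 0.05 there were 4 members, against 12.4% of all genes. Neither limma-trend (0.882% of all genes called) nor DESeq2 (2.67%) called any. These were Htr2c (0.61, SE 0.29), Hrh3 (0.44, SE 0.15), Chrm4 (0.43, SE 0.20) and Chrna7 (0.33, SE 0.14). Of the 7 receptors coupled to Gs, 4 lay above 0 here (median 0.04), where 49.6% of all genes did. With EGFP-KASH only, 2 of the 7 lay above 0 (median -0.39), against 46.4% of all genes. Whether these counts differed between the comparisons was not tested.

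With EGFP-KASH only, where no effector was present, Chrm2 rose in the C9-BACexp mice, as 1 of 37 members and against 2.86% of all genes called (1.59% higher). At an unadjusted p under 0.05 there were 8 members, against 18.9% of all genes. It had 92.9, 99.2 and 74.1 CPM in C9-BACexp mice, against 55.6, 59.3, 62.2 and 54.2 CPM in C57BL/6J mice. The groups did not overlap, as for 5 of 37 members and 6.13% of all genes in this comparison. The means were 88.7 ± 13.1 CPM and 57.8 ± 3.59 CPM (SD, n = 3 and 4), a log2 fold change of 0.62 (SE 0.15, adjusted p = 0.0340, edgeR). The gene lies on chromosome 6 at 36364718 to 36505582 (GRCm39, plus strand), where 9330158H04Rik runs antisense to it.

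The call of Chrm2 rested on few mice. It held in 3 of 7 fits that left out 1 library (0.52 to 0.74), and was lost without replicate 2 (adjusted p = 0.0520) or 3 (0.113) of the C9-BACexp mice and without replicate 2 (0.0591) or 5 (0.0537) of the C57BL/6J mice. Without the 3 libraries with few genes detected it was 0.61 (adjusted p = 0.0549), and without the factors 0.62 (adjusted p = 0.343). With crRNA-13, Chrm2 had 43.0, 60.6, 73.3, 78.9, 86.3 and 78.7 CPM in C9-BACexp mice, against 71.5, 93.1 and 60.1 CPM in C57BL/6J mice. With NTG it had 70.6, 105, 74.7, 87.3, 77.6 and 72.6 CPM in C9-BACexp mice, against 65.1, 79.6, 78.6, 76.0 and 79.2 CPM in C57BL/6J mice. The groups overlapped in both, with log2 fold changes of -0.13 (SE 0.14) and 0.10 (SE 0.12).

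Htr2c, a Gq/11-coupled serotonin receptor of deep-layer and striatal neurons, came nearest among the other members with EGFP-KASH only. It had 15.02, 51.5 and 21.5 CPM in C9-BACexp mice, against 7.86, 10.7, 20.98 and 17.7 CPM in C57BL/6J mice. The difference of 1.04 (SE 0.30, adjusted p = 0.0696) leaned on replicate 3 of the C9-BACexp mice, which had the highest Htr2c value of all 27 libraries. Without the 3 libraries with few genes detected it was called (1.35, adjusted p = 0.0156), as the only member, against 2.43% of all genes in that fit. Chrm1, steady in every group, had 57.9, 66.2 and 62.8 CPM in C9-BACexp mice, against 74.0, 67.0, 74.4 and 78.4 CPM in C57BL/6J mice. These groups lay just apart, and the difference of -0.24 (SE 0.08) was not called (adjusted p = 0.126). Chrna1os gave -2.34 (SE 0.91) and was not called.

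The effect of crRNA-13 over NTG was measured within each genotype. In C9-BACexp mice 0 of 37 members were called, where 0.478% of all genes were, and 4 members against 10.3% of all genes had an unadjusted p under 0.05. Limma-trend (0.413% of all genes called) called none, and DESeq2 (1.61%) called 1, Adrb1. Adrb1 had 8.33, 14.95, 10.2, 10.4, 10.9 and 10.4 CPM in C9-BACexp mice with crRNA-13, against 7.61, 8.93, 5.75, 8.65, 9.71 and 7.18 CPM in C9-BACexp mice with NTG. Only replicate 1 of the crRNA-13 mice lay within the NTG range, and the log2 fold change was 0.44 (SE 0.14, adjusted p = 0.107). Without replicate 1 of the crRNA-13 mice, 1 of the libraries with few genes detected, Adrb1 was called (adjusted p = 0.0362). Adra1d gave 0.52 (SE 0.22, adjusted p = 0.230), Htr1d -0.28 (SE 0.40) and Chrna4 -0.09 (SE 0.10).

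In C57BL/6J mice, which carry no human target, 0 of 37 members and 0% of all genes passed the stricter limits used there, with an adjusted p under 0.01. An unadjusted p under 0.05 was reached by 5 members, against 11.1% of all genes, and neither limma-trend (0% of all genes) nor DESeq2 (0.813%) called a member. The groups did not overlap for 4 of 37 members, against 2.78% of all genes. Next to Chrna4, Htr7 came closest, a serotonin receptor coupled to Gs. It had 8.20, 8.86 and 4.82 CPM in C57BL/6J mice with crRNA-13, against 19.8, 15.3, 13.9, 14.2 and 9.02 CPM in C57BL/6J mice with NTG. All crRNA-13 mice lay below all NTG mice, with a log2 fold change of -0.98 (adjusted p = 0.157). The 7 receptors coupled to Gs all lay below 0 in this comparison (median -0.57), where 50.3% of all genes lay above 0, and 1 of the 7 had an unadjusted p under 0.05. This count shares the C57BL/6J mice with NTG with that of the genotype comparison with NTG, so the counts are not independent. Against EGFP-KASH only, these NTG mice had 6 of the 7 above 0 (median 0.14), where 51.8% of all genes were. The direction of the class was not tested.

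Against EGFP-KASH only, crRNA-13 changed 0 of 37 members in C9-BACexp mice, where 0.923% of all genes were called. Here 7 members and 12.2% of all genes had an unadjusted p under 0.05, limma-trend (0.786% of all genes called) called none, and DESeq2 (2.50%) called 1, Htr6. Htr6 encodes a Gs-coupled serotonin receptor of neuronal cilia. It had 3.58, 9.75, 12.5, 7.74, 7.40 and 7.31 CPM in C9-BACexp mice with crRNA-13, against 23.3, 7.81 and 10.2 CPM in C9-BACexp mice given EGFP-KASH only. Its highest and lowest values were those of the 2 C9-BACexp libraries with the fewest genes detected. The log2 fold change was -0.67 (SE 0.20, adjusted p = 0.0780) with all libraries and -0.03 (adjusted p = 0.975) without the 3 such libraries.

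NTG was also set against EGFP-KASH only. The effector cannot be told apart here from its vector, or from differences in age, dose or interval. In C9-BACexp mice 0 of 37 members were called, where 0.0322% of all genes were, and 3 members against 11.2% of all genes had an unadjusted p under 0.05. In C57BL/6J mice 0 members and 0% of all genes were called, and 2 members against 7.86% of all genes had an unadjusted p under 0.05. No member was called by limma-trend (0.0459% of all genes in C9-BACexp and 0% in C57BL/6J mice) or by DESeq2 (0.983% and 0.257%). The smaller p of the pair in C57BL/6J mice was that of Chrm2, with 65.1, 79.6, 78.6, 76.0 and 79.2 CPM with NTG, against 55.6, 59.3, 62.2 and 54.2 CPM with EGFP-KASH only. Those groups did not overlap, which held for 1 of 37 members and 0.841% of all genes, and the log2 fold change of 0.39 had an adjusted p of 0.514. For the change of the genotype difference between crRNA-13 and NTG, 0 of 37 members were called, where 0.00459% of all genes were, and 5 members against 10.4% of all genes had an unadjusted p under 0.05. Limma-trend (0% of all genes) and DESeq2 (1.09%) called no member for it. Without the 3 libraries with the fewest genes detected, 0 of 37 members were called for it, where 1.24% of all genes were.

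Cell type markers moved with the genotype as well. The summed CPM of 18 markers of striatal projection neurons, which lie beneath the motor cortex, was 1406 to 9461 in C9-BACexp mice with NTG and 855 to 1927 in C57BL/6J mice with NTG, and 6 of the 18 were called higher. It was highest in replicate 6 of the C9-BACexp mice with NTG. That library also held the highest values of 6 of the 46 members. These were Htr1d (4.52 CPM), Chrm4 (45.0 CPM), Hrh3 (38.4 CPM), Htr1b (8.78 CPM), Chrm5 (2.55 CPM) and the untested Adra2b (0.190 CPM). Chrm4, Hrh3 and Htr1b are known to be abundant in striatal projection neurons. No marker of that list was at 0 in all libraries of a group. Without replicates 1 and 6 of the C9-BACexp mice with NTG, Htr1d had the log2 fold change of 1.88 given above. With crRNA-13 the striatal sum was 1703 to 3994 CPM in C9-BACexp mice and 1344 to 1759 CPM in C57BL/6J mice, and 1 of 18 was called higher. With EGFP-KASH only it was 1431 to 4394 CPM in C9-BACexp mice and 1546 to 1932 CPM in C57BL/6J mice, and 0 of 18 were called, with 2 at an unadjusted p under 0.05. The highest of these sums, 4394 CPM, was that of replicate 3 of the C9-BACexp mice, which also had the highest Htr2c. That library had Chrm4 at 22.8 CPM and Htr1d at 3.02 CPM, where the medians of all libraries were 20.8 and 1.21 CPM.

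For 14 markers of deep-layer projection neurons the sum was 2542 to 3474 CPM in C9-BACexp mice with NTG and 1311 to 2361 CPM in C57BL/6J mice with NTG. These groups did not overlap, as for Chrna4, and 5 of the 14 markers were called higher. With crRNA-13 the deep-layer sum was 2464 to 3752 CPM in C9-BACexp mice and 2423 to 3776 CPM in C57BL/6J mice. Every C57BL/6J mouse with crRNA-13 thus lay above every C57BL/6J mouse with NTG in this sum, as in Chrna4. With EGFP-KASH only the deep-layer sum was 2594 to 3141 CPM in C9-BACexp mice and 1650 to 3285 CPM in C57BL/6J mice, and 0 of 14 were called higher and 1 lower. For 12 upper-layer markers, 1 was called higher and 3 lower with NTG. Of 13 astrocyte markers 3 were called lower with NTG, as was Adra1d. With crRNA-13, where Adra1d was not called, 2 of the 13 were called lower and 12 lay below 0, while 49.6% of all genes lay above 0. Of 15 oligodendrocyte markers, 14 were called higher with NTG. The sum of the 15 was 1296 to 2953 CPM in C9-BACexp mice with NTG and 403 to 2220 CPM in C57BL/6J mice with NTG. With EGFP-KASH only, 6 of these 15 were called higher, beside Chrm2. For precursors of oligodendrocytes and for interneurons 1 of 10 and 1 of 14 markers were called higher with NTG, for endothelial and mural cells 1 of 12 was called lower, and for microglia and choroid plexus 0 of 12 and 0 of 5 were called. The part of these markers in the receptor results was not tested.

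**Figure D4:**
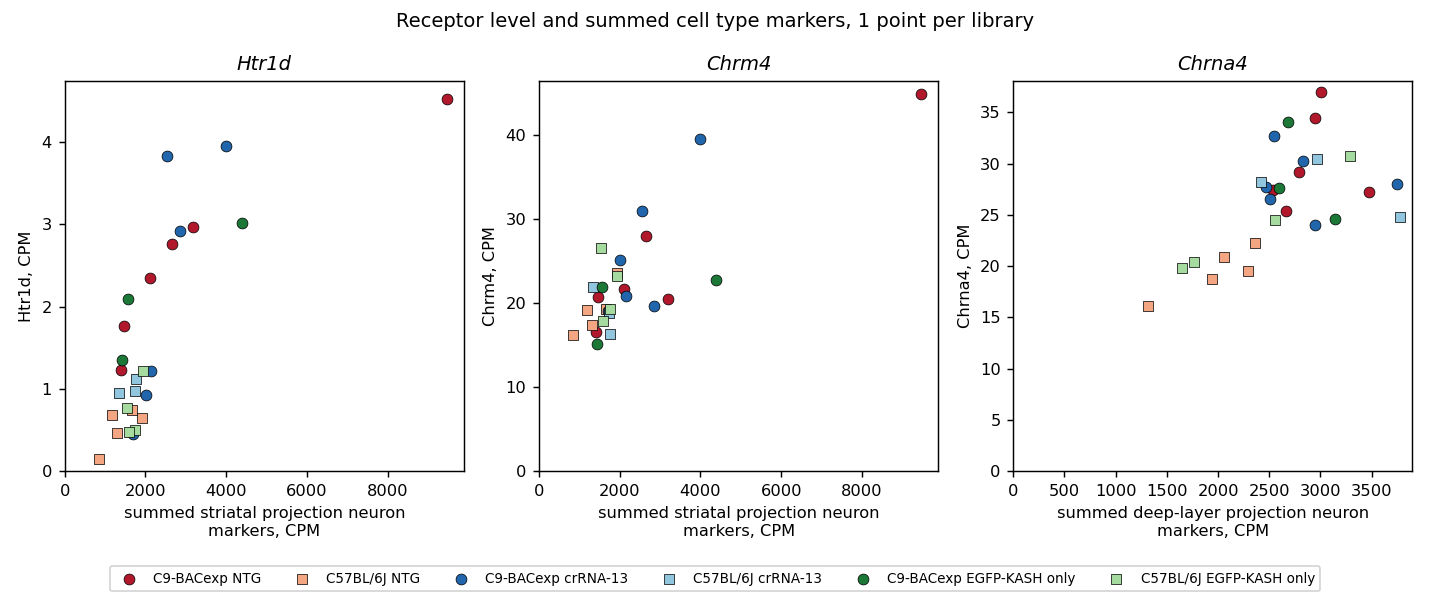
CPM of Htr1d and Chrm4 against the summed CPM of 18 striatal projection neuron markers, and of Chrna4 against the summed CPM of 14 deep-layer markers, 1 point per library, coloured by group. The library with the largest striatal sum (9461 CPM) also has the highest Htr1d (4.52 CPM) and Chrm4 (45.0 CPM).

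Genes that act before and after the receptors were counted from lists, all with NTG between the genotypes, where 6.60% of all genes were called. Of 15 tested genes for making, moving and breaking down the ligands, 1 was called, Ache, which encodes the enzyme that splits acetylcholine (35.2 ± 4.43 CPM in C9-BACexp and 28.1 ± 7.80 CPM in C57BL/6J mice, log2 fold change 0.35, adjusted p = 0.0309, edgeR). Of 13 G protein α subunits, 2 were called higher. Gnao1, the main Go subunit of brain, averaged 801.6 ± 82.4 CPM in C9-BACexp and 590.6 ± 98.0 CPM in C57BL/6J mice (0.45, adjusted p = 0.00348). Gna12 averaged 96.0 ± 23.4 CPM in C9-BACexp and 64.8 ± 20.8 CPM in C57BL/6J mice (0.58, adjusted p = 0.00453).

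Of 18 genes for phospholipase C β, adenylyl cyclases and GIRK channels, 1 was called higher and 2 lower. Plcb4, an effector of Gq/11, fell to 182.4 ± 25.2 CPM in C9-BACexp mice, against 236.8 ± 37.0 CPM in C57BL/6J mice (-0.36, adjusted p = 0.0188, edgeR). Adcy10 also fell (-1.05, adjusted p = 0.00453), and Adcy5, which is itself one of the striatal markers, rose (1.57, adjusted p = 0.0313). Of 21 receptor kinases, arrestins and RGS proteins, which end the signal, 2 were called higher and 3 lower. Rgs7, which speeds up the shut-off of Go, fell to 560.7 ± 41.1 CPM in C9-BACexp mice, against 832.8 ± 116 CPM in C57BL/6J mice (-0.56, adjusted p = 9.66e-05). Its relatives Rgs6 (-0.47) and Rgs4 (-0.64) fell too, and Grk3 (0.27) and the striatal marker Rgs9 (1.91) rose. Of 8 tested chaperones and Ly6 modulators of nicotinic receptors 0 were called, with 1 at an unadjusted p under 0.05. Of 5 tested related receptors 1 was called, the dopamine receptor gene and striatal marker Drd2 (3.58, adjusted p = 0.0415).

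With crRNA-13, 0 of the 80 tested genes of these 6 lists were called between the genotypes, where 1.09% of all genes were. An unadjusted p under 0.05 was reached by 16 of the 80, against 12.4% of all genes, and limma-trend called 1 and DESeq2 4. With EGFP-KASH only, 2 of the 80 were called higher and 2 lower, where 2.86% of all genes were called. There 19 of the 80 had an unadjusted p under 0.05, against 18.9% of all genes. Gnao1 (0.51, adjusted p = 0.00648, edgeR) and Grk3 (0.36) rose, and the GIRK subunit gene Kcnj3 (-0.40, adjusted p = 0.00638) and Rgs17 (-0.47) fell. Gnao1 and Grk3 were the list genes called between the genotypes both with NTG and with EGFP-KASH only. These comparisons share no mouse, but both come from 1 model with the same 4 factors, so the calls are not independent. For crRNA-13 against EGFP-KASH only in the transgenic mice, 1 of the 80 was called, where 0.923% of all genes were. This was Maob, which encodes a monoamine oxidase and fell by 1.22 on the log2 scale (adjusted p = 0.0433, edgeR). In that comparison 7 of the 80 had an unadjusted p under 0.05, against 12.2% of all genes. None of the calls in these lists held in edgeR without the factors.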

How the data were processed

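RNA was measured in 27 libraries of EGFP-KASH+ motor cortex nuclei. The authors deposited expected counts, which are gene-level estimates made with Salmon 1.10.0 from spliced and unspliced transcripts and with tximport in R 4.3.1 (GRCm39), and which are not normalized between libraries. Introns therefore add to a gene's count. No column was left unmapped.

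Counts were rounded, filtered with filterByExpr (smallest count 10, smallest total 15), scaled by TMM and tested in edgeR 4.0.16 under R 4.3.3 by the robust quasi-likelihood F test, in 1 model of 6 groups with 4 factors of unwanted variation. The factors were taken from residuals (RUVr), an assumption, since the methods name RUVSeq but not its variant. For the 3 genotype comparisons and for crRNA-13 against either control in C9-BACexp mice, p-values of these 5 were pooled for Benjamini-Hochberg adjustment (fold change above 1.2, adjusted p under 0.05). Every other comparison was adjusted alone, and C57BL/6J mice with crRNA-13 were set against NTG at limits of 1.25 and 0.01. Standard errors are the log2 fold change over the square root of F. Limma 3.58.1 (limma-trend) and DESeq2 1.42.0 were alternatives, beside no factors or 2, a replicate block, median-ratio size factors, no filter and fits that left out libraries. The fit was tested on simulated data. The spread used a pseudocount of 0.5 CPM.

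Members and lists were chosen with earlier results of these data known, and the alternative without the 3 libraries with the fewest genes detected was chosen after seeing the data. Members were to be named throughout, but 1 is not reported here. Those called are given in full, the others by coupling class with the nearest to a call, and list genes where called, at most 4 a list and comparison by smallest p. Further called list genes and the members given with the values of every library without a call were chosen after their values were seen. The paper states that both sexes were used and that its groups were balanced for sex and litter. Neither was in the model. The labels do not say whether mice shared litters or preparation days, so p-values measure only the spread between these libraries. In fits with the 4 factors, which come from residuals of these same libraries, p-values measure the spread left after the factors. Positions are from GENCODE vM39.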

Additional observations from a re-analysis of the deposited data

Results flagged for a closer look

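Among 48 pairs of a group and a member examined for a library far from its group, 2 were flagged. That is no more than chance gives, which is about 1 in 20. Chrm2 was at 65.1 CPM in replicate 1 of the C57BL/6J mice with NTG (n = 5), below the nearest value of 76.0 CPM. Htr1b, a serotonin receptor of nerve endings that is abundant in striatal neurons, was at 8.78 CPM in replicate 6 of the C9-BACexp mice with NTG (n = 6), above the nearest value of 3.95 CPM. The same library had the largest sum of striatal markers, 9461 CPM.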

How the results depend on the processing

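The log2 fold changes of Chrna4, Htr1d, Adra1d and Chrm2 in the comparisons that called them kept their sign in every alternative run. The counts of called members moved. Between the genotypes with NTG, 3 members were called, and 0 without the factors in edgeR, in limma-trend without factors and with a replicate block without factors. It was 5 without the 3 libraries with the fewest genes detected, and 2 to 5 when 1 library was left out (5 without replicate 5 of the C57BL/6J mice, 2 without replicate 2). With EGFP-KASH only, 1 member was called, and 0 without the factors in edgeR, limma-trend or DESeq2, with 2 factors and with a replicate block without factors. It was 2 in DESeq2 and with the replicate block, and 0 to 2 when 1 library was left out. Without the 3 libraries it was 1, but Htr2c in place of Chrm2. For crRNA-13 against NTG in C9-BACexp mice, 0 became 1 with the replicate block and in DESeq2, and 0 to 1 when 1 library was left out. In C9-BACexp mice with crRNA-13 against those given EGFP-KASH only, 0 became 1 in DESeq2, and 0 to 1 when 1 library was left out. In C9-BACexp mice with NTG against those given EGFP-KASH only it was 0 to 1 when 1 library was left out. No member was called under any alternative for the genotypes with crRNA-13, the remaining comparisons within C57BL/6J mice or the change of the genotype difference. The cause was not tested. Over all genes, edgeR called 1437 with NTG between the genotypes, 6 without the factors, limma-trend without factors 4, DESeq2 2233 and DESeq2 without factors 282. Replicate numbers were not taken to pair mice, since the deviations of same-numbered libraries correlated at -0.162 to 0.286. Adding the replicate block gave 4 called members with NTG (Adrb1 added) and 2 with EGFP-KASH only (Htr2c added). Low members rest on few counts: Htr1d had 4 to 120 counts a library, and 9 members could not be tested at this depth.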

Other observations

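A pair of nicotinic subunit genes too rare to be tested were high in 1 or 2 libraries, and they were picked out after their values were seen. Chrna9 had counts in 19 of the 27 libraries. It was at 1.41 CPM in replicate 1 of the C57BL/6J mice with NTG and at 1.199 CPM in replicate 2 of the C9-BACexp mice given EGFP-KASH only, and at most 0.194 CPM in the other 25 libraries. Chrna6 had counts in 6 libraries and was at 0.999 CPM in that C9-BACexp library, against at most 0.0801 CPM in any other.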
